A study of Mus musculus with 8 samples.

Results

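The genes that install and remove N6-methyladenosine (m6A) on messenger RNA, the writers and erasers, were examined in cultured bone marrow mesenchymal stem cells (MSCs) of C57BL/6 mice. The members were chosen by name and numbered 10 of the 47643 named entries of the expression table: the writer genes Mettl3, Mettl14, Wtap, Zc3h13, Rbm15, Rbm15b, Cbll1 and Mettl16 and the eraser genes Alkbh5 and Fto. All 10 were present and all 10 passed the filter on low counts, which kept 15327 genes. RNA-seq covered 2 libraries labelled wild type (WT), which in this study were Mettl3fl/fl littermates, and 2 labelled Prx1-cre;Mettl3fl/fl (conditional knockout, cKO). MeRIP-Seq, in which an antibody recovers RNA fragments that carry m6A, covered 2 immunoprecipitates and 2 inputs of wild type MSCs. Cells of every sample had been flushed from tibiae and femurs and kept for 2 days in osteogenic medium, which held dexamethasone (100 nM), β-glycerophosphate (5 mM) and ascorbic acid (50 µg/ml). Neither the age of the mice nor pooling of mice was given in the sources used here.

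On messenger RNA, most m6A is laid down in the nucleus by a complex. METTL3 transfers the methyl group from S-adenosylmethionine, METTL14 is its catalytically inactive partner that helps to bind RNA, and WTAP anchors the pair to nuclear speckles. ZC3H13, RBM15, RBM15B, the E3 ligase-like protein CBLL1 (HAKAI) and VIRMA belong to the associated regulatory part, in which the RBM15 proteins bind RNA and help to place the complex on its targets. METTL16 is a separate methyltransferase that acts on U6 snRNA and on the mRNA of the S-adenosylmethionine synthetase Mat2a. ALKBH5 and FTO are dioxygenases that take the methyl group off again. Writer activity is found mostly at adenosines within short motifs around GGAC, often in long exons and near the stop codon.

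The transcripts of 8 of these 10 genes carried m6A peaks themselves in the wild type MSCs. A peak was present on 37.1% of all genes tested, and on 48.6% of those at levels between the lowest and the highest member. The 8 sites printed here show the GGAC motif in the genes that had a peak, with the motif in capitals inside 30 bases of coding sequence (CDS) of the transcript strand, 5′ to 3′, read from the mm9 genome. Each is the GGAC closest to the summit of the peak with the lowest q-value on that gene, and a motif within a peak is a description and not a mapped methylated base. The lines run from writers to erasers.
Wtap: tcctcccgccagaGGACgtctgggtctgga
Zc3h13: agataaagacaagGGACgcgatgaccggag
Rbm15: atggctggtcactGGACagggacagaggtg
Rbm15b: agggtgcgggataGGACccctccacacctt
Cbll1: tcatcctcctccaGGACcccctccacctca
Mettl16: gcaatggagcccaGGACggagaggcttctg
Alkbh5: ggatcctggaaatGGACaaagaagaaaacc
Fto: gcgatgatgaagtGGACcttaagagcagag

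The Wtap site lay at chr17:13160652-13160681 on the minus strand, the Zc3h13 site at chr14:75727850-75727879 on the plus strand and the Rbm15 site at chr3:107134117-107134146 on the minus strand. Those of Rbm15b (chr9:106787700-106787729) and Cbll1 (chr12:32172391-32172420) were also on the minus strand. The sites of Mettl16 (chr11:74631049-74631078), Alkbh5 (chr11:60367745-60367774) and Fto (chr8:93933549-93933578) were on the plus strand. The middle of the motif was 1.5 nt from the summit in Rbm15 and 3.5 nt in Rbm15b, whereas in Zc3h13 it was 108.5 nt away. In 8 of 8 genes the printed motif lay within a single exon.

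The Prx1-Cre transgene is active in limb mesenchyme and its descendants, so that other cells in a culture would keep the floxed alleles. A library held 23948228 to 34069249 counts. All 10 stromal markers were tested, with sums of 2870 and 2810 CPM (counts scaled to a library of 1000000) in WT and 2300 and 2320 in cKO. Most of each sum was Col1a1, at 1900 and 1920 CPM in WT and 1220 and 1260 in cKO. By edgeR 4 of the 10 were called higher and 5 lower in cKO. For example, Thy1 was at 3.93 and 1.91 CPM in WT and 74.6 and 69.4 in cKO. Prrx1 was at 146 and 133 against 288 and 289, and Nt5e at 12.3 and 12.3 against 2.85 and 2.04. Macrophage markers were abundant as well, with sums of 15200 and 19800 in the WT and 20200 and 20300 in the cKO libraries. Most of each sum was Lyz2, at 11000 and 15900 CPM in WT and 15600 and 15700 in cKO. Of the 8 macrophage markers, edgeR called 1 higher and 0 lower in cKO. Macrophage Csf1r alone stood at 1330 and 1470 CPM in WT and 1410 and 1420 in cKO. Of the 5 neutrophil markers, 4 were below 1 CPM in every library, as were 3 of 4 endothelial and 5 of 5 erythroid markers. The exceptions were neutrophil S100a8, at 2.72 and 3.39 CPM in WT and 0.784 and 0.376 in cKO, and endothelial Kdr. Kdr was at 2.45 and 1.77 CPM in WT and 9.9 and 8.84 in cKO. By edgeR, 1 neutrophil marker was called lower and 1 endothelial marker higher. The summed chondrocyte markers were 2760 and 2720 CPM in WT and 50.2 and 53.0 in cKO, and the summed adipocyte markers 110 and 126 against 185 and 189. Of the 4 adipocyte markers, 3 were called higher and 1 lower, Fabp4 being at 61.9 and 68.8 CPM in WT and 136 and 140 in cKO and Cidec at 20.5 and 28.0 against 4.12 and 4.2. The part of cell composition in the results was not tested, and in bulk RNA fewer cells of a type cannot be told apart from less RNA per cell. The 2 WT libraries differed far more from each other than the 2 cKO libraries did. The chi-square statistic was 32.6 times its expectation for WT and 1.82 times for cKO, and the biological coefficient of variation was 12.3% and 1.92%. The labels do not say whether replicates came from separate mice or cultures, so the p-values measure the spread between these libraries, which may be technical.

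The targeted gene was Mettl3, the catalytic subunit. Mettl3 (ENSMUSG00000022160, minus strand, mm9 chr14:52914343-52924803) stood at 17.6 and 16.9 CPM in the WT libraries and at 17.5 and 16.3 CPM in the libraries labelled cKO. The groups overlapped. The log2 fold change, cKO minus WT throughout, was −0.03 (SE 0.0929, 95% interval −0.26 to 0.19, edgeR quasi-likelihood test with Benjamini-Hochberg adjusted p = 0.824). The level of Mettl3 in the libraries labelled cKO was therefore not shown to be lower, and since gene counts include the exons that are not deleted, they do not test the deletion. The paper itself reported the deletion at the protein level, by immunostaining and western blot. It also reported a lower m6A level in mRNA of the knockout MSCs, by mass spectrometry. All directions given here rest on the labels. Recombination was designed to remove exons 2 and 3, which in the representative transcript of 11 exons are 218 and 405 nt of CDS, together 623 of 2025 nt (30.8%) and not a multiple of 3. If every transcript lost these bases, nothing else changed and counts scaled with length, the log2 value would be −0.53. Gene counts do not show which exon a read came from or which cells kept the floxed alleles, and the share of deleted transcripts was not tested. Of the Mettl3 transcript, 366 nt (18.1%) overlap exons of Tox4, an HMG-box gene on the opposite strand, whose level was 76.2 and 70.3 CPM in WT and 74.4 and 70.6 in cKO. How reads of overlapping genes were assigned was not given in the sources used here.

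The length that the deposited values imply was another measure of Mettl3. A count divided by the length-scaled TPM value (transcripts per 1000000 transcripts) is proportional to the length that the authors' software used, here relative to the median gene of the library. For Mettl3 this relative length was 0.625 and 0.623 in WT and 0.703 and 0.714 in cKO, a log2 shift of 0.18. The groups did not overlap, and 9.84% of genes had a shift at least as large in either direction. For Fto it was 1.52 and 1.5 in WT and 1.36 and 1.29 in cKO, a log2 shift of −0.19 that 9.46% of genes equalled or exceeded. For each of the other 8 members the shift was between −0.06 and 0.02. A longer implied length gives a lower TPM from the same count. The TPM of Mettl3 was 16.88 and 15.78 in WT and 15.75 and 14.56 in cKO. On that scale the groups did not overlap, but WT replicate 2 (15.78) and cKO replicate 1 (15.75) nearly met. By limma on log2(TPM + 0.1) the log2 change was −0.11 (adjusted p = 0.468).

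**Figure D1:**
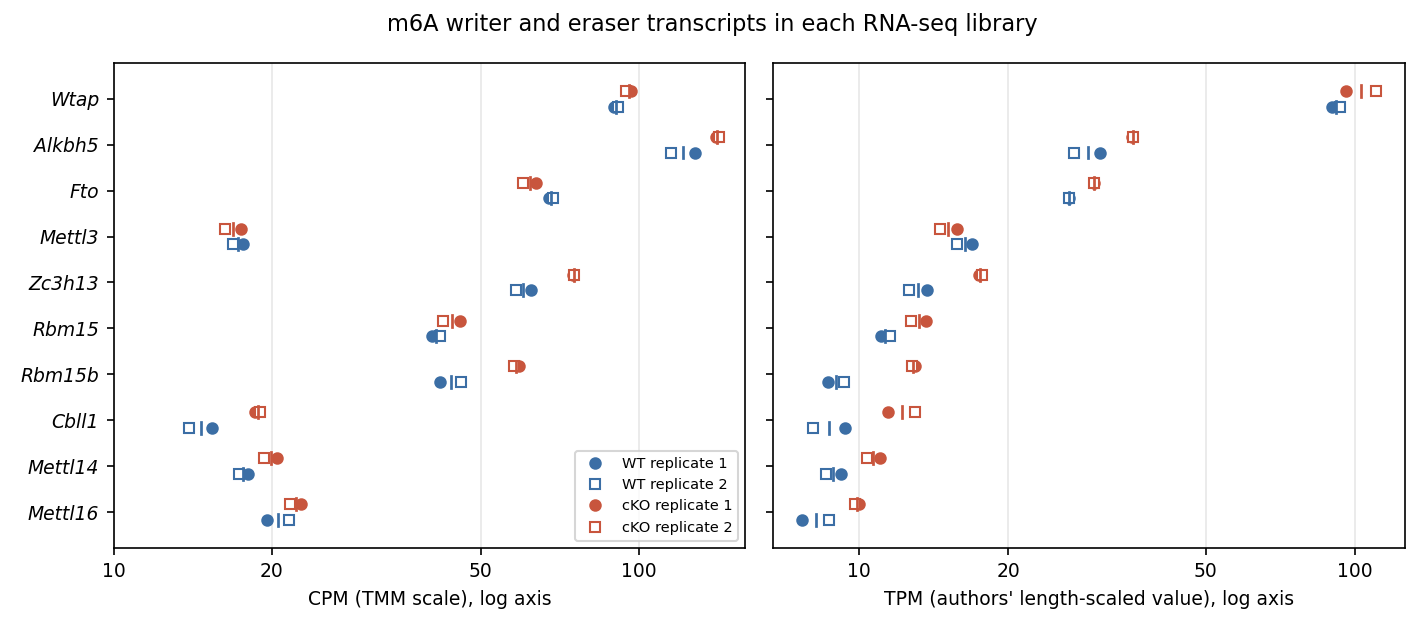
Levels of the 10 m6A writer and eraser genes in each of the 4 RNA-seq libraries, as CPM (left) and as TPM (right) on log axes, with circles for replicate 1, squares for replicate 2 and vertical ticks for group means. Mettl3 overlaps between genotypes in CPM, and Fto lies below WT in the cKO libraries in CPM (60.3 and 63.8 against 67.3 and 68.5) but above it in TPM (29.74 and 29.75 against 26.54 and 26.5).

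Among the associated writer subunits, Rbm15b, Zc3h13 and Cbll1 rose in the libraries labelled cKO, by 33.6%, 24.7% and 27.9%. No member was called lower in the main edgeR test. In 8 of the 10 genes both cKO libraries lay above both WT libraries in CPM, in Fto both lay below and in Mettl3 they overlapped. Of all 15327 genes, 68.9% had no overlap, 33.9% with the cKO libraries above and 35.0% with them below. The 3 calls at an adjusted p under 0.05 stand beside 30.5% of all genes tested in either direction, 13.7% called higher and 16.8% called lower. The share of members called in either direction was thus close to that of all genes. At an unadjusted p under 0.05, 4 members passed (42.2% of all genes), 4 higher and 0 lower, and DESeq2 likewise called 0 members lower. The median log2 fold change was 0.14 over the 10 members and 0.00 over all genes tested, whose quartiles were −0.27 and 0.24.

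Rbm15b encodes an RNA-binding protein that, with its paralogue RBM15, guides the complex to transcripts such as Xist. It stood at 41.8 and 45.8 CPM in WT and at 59.1 and 57.8 CPM in cKO (means 43.8 ± 2.79 and 58.5 ± 0.931, SD, n = 2 libraries each). Its increase was the largest among the members, 1.34-fold (log2 0.42, SE 0.0727, 95% interval 0.24 to 0.59, edgeR quasi-likelihood adjusted p = 0.00767). The gene lies inside the span of Manf, a secreted stress-response factor, on the same strand. Manf itself was at 133 and 135 CPM in WT and at 89.7 and 93.9 CPM in cKO, so the overlapping gene fell (log2 −0.54, edgeR quasi-likelihood adjusted p = 0.00129). The neighbouring Vprbp, which overlaps the downstream end on the opposite strand, had a log2 change of 0.19 (edgeR quasi-likelihood adjusted p = 0.185). Reads shared between these genes could move between their counts, and the value of Rbm15b is uncertain to that degree.

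Zc3h13 encodes the zinc finger protein that keeps WTAP and its partners in the nucleus. Its level was 62.2 and 58.3 CPM in WT and 74.9 and 75.4 CPM in cKO, with no overlap (means 60.2 ± 2.80 and 75.2 ± 0.285, SD, n = 2). The change was 1.25-fold (log2 0.32, SE 0.0644, 95% interval 0.16 to 0.47, edgeR quasi-likelihood adjusted p = 0.0133). Cbll1, the HAKAI subunit, was at 15.4 and 13.9 CPM in WT and at 18.6 and 19.0 CPM in cKO, also without overlap (means 14.7 ± 1.06 and 18.8 ± 0.334, SD, n = 2). It changed 1.28-fold (log2 0.36, SE 0.0972, 95% interval 0.12 to 0.59, edgeR quasi-likelihood adjusted p = 0.0359).

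All 3 calls needed both cKO libraries as separate samples. With cKO replicate 1 left out, the edgeR quasi-likelihood adjusted p was 0.0931 for Rbm15b, 0.155 for Zc3h13 and 0.215 for Cbll1. Without cKO replicate 2 it was 0.0703, 0.17 and 0.271, and with the 2 cKO libraries summed to 1 sample, since they were so alike, 0.0752, 0.152 and 0.220. The log2 changes hardly moved (0.41 to 0.44, 0.32 to 0.33 and 0.34 to 0.38). By DESeq2 the call of Cbll1 was lost (adjusted p = 0.0890), while Rbm15b (0.00188) and Zc3h13 (0.0127) passed. The study called genes with Ballgown at an unadjusted p under 0.05 and at least a 2-fold change. With these thresholds applied to the edgeR values instead, 0 of the 10 members passed, against 10.5% of all genes.

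**Figure D2:**
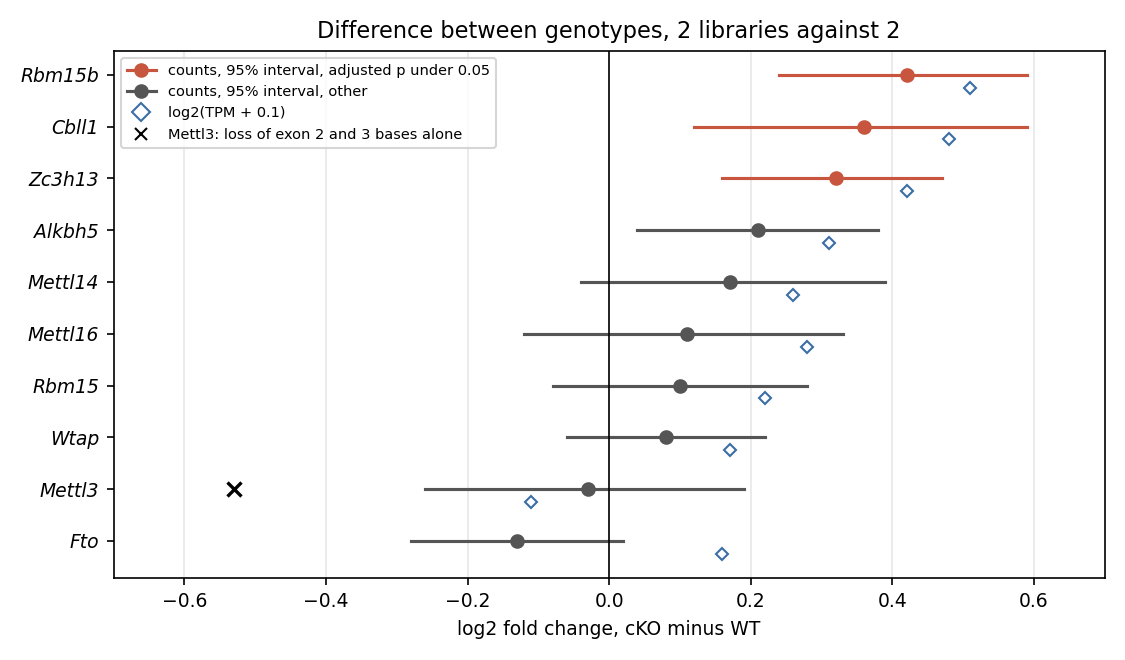
Log2 fold change of each member, cKO minus WT, from 2 libraries against 2. Circles and bars are the count-based values with their 95% intervals, red where the adjusted p was under 0.05 (Rbm15b, Cbll1 and Zc3h13), open diamonds are the differences of log2(TPM + 0.1), and the cross marks the value of −0.53 that loss of exons 2 and 3 alone would give for Mettl3.

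The core partner Mettl14 and the adaptor Wtap did not pass the test. Mettl14 was at 18.0 and 17.3 CPM in WT and at 20.5 and 19.3 CPM in cKO (log2 0.17, 95% interval −0.04 to 0.39, edgeR quasi-likelihood adjusted p = 0.194). For Wtap the values were 89.8 and 91.3 CPM against 96.8 and 94.5 CPM (log2 0.08, 95% interval −0.06 to 0.22, edgeR quasi-likelihood adjusted p = 0.347). In both genes the cKO libraries were the higher ones, by a small margin. Rbm15, the paralogue of Rbm15b, stood at 40.4 and 41.9 CPM in WT and at 45.7 and 42.4 CPM in cKO (log2 0.10, 95% interval −0.08 to 0.28, edgeR quasi-likelihood adjusted p = 0.361). The interval of Rbm15 overlapped that of Rbm15b, and the difference between the paralogues was not tested. Mettl16, the writer outside the complex, was at 19.6 and 21.6 CPM in WT and at 22.7 and 21.7 CPM in cKO (log2 0.11, 95% interval −0.12 to 0.33, edgeR quasi-likelihood adjusted p = 0.432).

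Neither eraser passed the main test. Alkbh5, the eraser with the higher count, stood at 128 and 115 CPM in WT and at 140 and 142 CPM in cKO. Its libraries did not overlap, and the log2 change of 0.21 had an interval above 0 (0.04 to 0.38) but an edgeR quasi-likelihood adjusted p of 0.0631. The same test called Alkbh5 higher without a filter on low counts (adjusted p = 0.0258) and with total counts in place of TMM (0.0458). It did not with a replicate block (0.0697), nor did DESeq2 (adjusted p = 0.0966) or limma on log2(TPM + 0.1) (adjusted p = 0.126). The log2 change of Alkbh5 was 0.30 without WT replicate 1 and 0.14 without WT replicate 2. Without cKO replicate 1 or 2 it was 0.23 or 0.21. Fto was at 67.3 and 68.5 CPM in WT and at 63.8 and 60.3 CPM in cKO (log2 −0.13, 95% interval −0.28 to 0.02, edgeR quasi-likelihood adjusted p = 0.171). The direction of Fto depended on the scale: per length the TPM was 26.54 and 26.5 in WT and 29.74 and 29.75 in cKO, a difference of 0.16 on the log2(TPM + 0.1) scale. On that scale the median over all genes was itself 0.10, and the median over the members 0.27.

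Levels between genes were compared per length, in TPM. Wtap was the most abundant member in all 4 libraries, at 89.57 and 93.15 TPM in WT and 95.58 and 110.11 in cKO, which was 37.7% to 42.1% of the summed TPM of the 10 genes. Alkbh5 came next (30.6 and 27.17 in WT, 35.56 and 35.74 in cKO), followed by Fto, and this order held in every library. Alkbh5 exceeded Fto 1.15-fold and 1.03-fold in WT and 1.20-fold in each cKO library. The catalytic Mettl3 ranked 4 in WT and 5 in cKO, and Zc3h13 the reverse, with 13.7 and 12.63 TPM in WT and 17.49 and 17.67 in cKO. Of these, Mettl3 was above Zc3h13 in both WT libraries and below it in both cKO libraries. The longer implied length of Mettl3 in cKO (0.703 and 0.714, against 0.625 and 0.623 in WT) enters this order.

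The other 5 members had the lowest levels per length. Rbm15 was at 11.08 and 11.53 TPM in WT and 13.66 and 12.75 in cKO, Rbm15b at 8.67 and 9.35 against 13 and 12.77, and Cbll1 at 9.36 and 8.07 against 11.47 and 12.98. Mettl14 (9.2 and 8.58, then 11.01 and 10.39) and Mettl16 (7.67 and 8.71, then 10.02 and 9.81) closed the list. In this lower part, Rbm15b, Cbll1, Mettl14 and Mettl16 could not be ordered in WT, where each overlapped its neighbour in the order of mean TPM, nor Rbm15, Rbm15b and Cbll1 in cKO. The ratio of Mettl3 to Mettl14, whose proteins form a heterodimer, was 1.83 and 1.84 in the WT libraries and 1.43 and 1.40 in the cKO libraries in TPM. The 2 pairs did not overlap, and the longer implied length of Mettl3 in the cKO libraries enters this ratio.

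**Figure D3:**
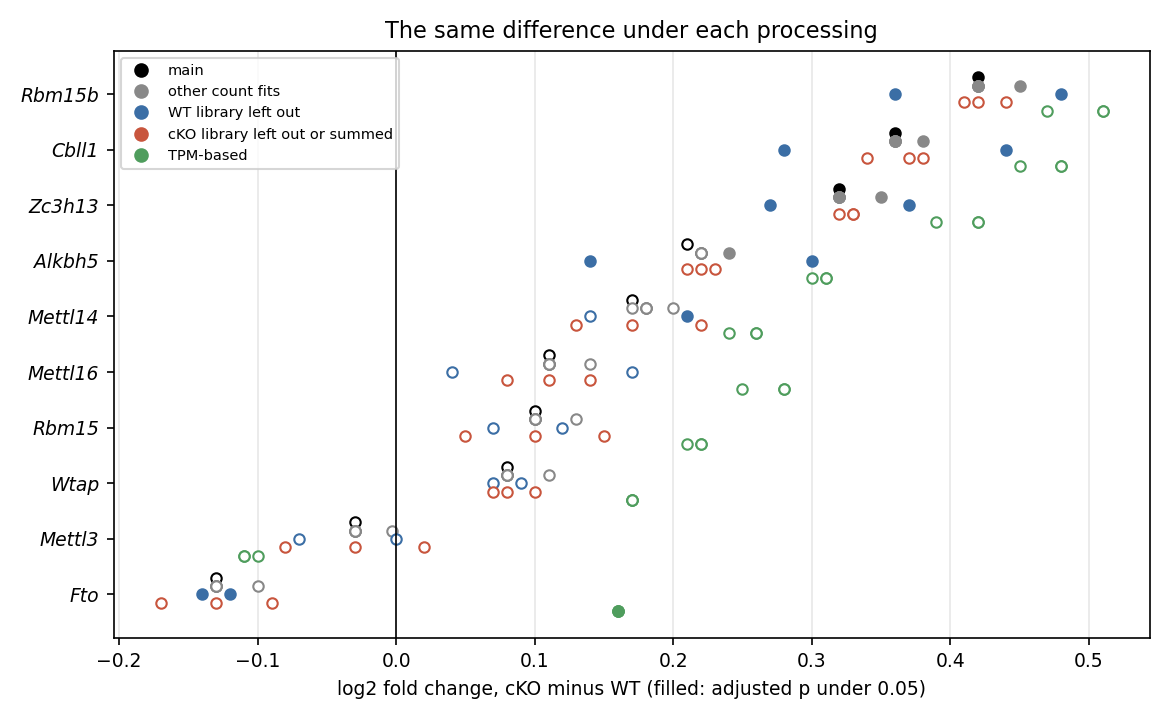
Log2 fold change of each member under the main processing and 13 alternatives, coloured by kind and filled where the adjusted p was under 0.05. Rbm15b, Cbll1 and Zc3h13 stay above 0 throughout, with open red points wherever a cKO library was left out or the cKO libraries were summed, and Fto lies below 0 in count-based and above 0 in TPM-based fits.

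The other genes of the m6A pathway were described from a list of 34, all of which were tested. Of these, 0 were called higher and 4 lower by edgeR's quasi-likelihood test, with a median log2 change of −0.01. At an unadjusted p under 0.05, 3 were higher and 6 lower. Of all 15327 genes, 3007 were higher and 3460 lower at that threshold, 42.2% in either direction. DESeq2 called 0 of the list higher and 3 lower, and 25.2% of all genes in either direction. By edgeR at an adjusted p under 0.05, 16.8% of all genes tested were called lower and 13.7% higher. The share of the list called lower by that test was thus below that of all genes. Of the 9 genes for S-adenosylmethionine supply, 3 were called lower, which is few to set beside that share. Mat2a, which makes S-adenosylmethionine and whose mRNA is a known METTL16 substrate, was at 206 and 210 CPM in WT and at 177 and 174 CPM in cKO (log2 −0.24, edgeR quasi-likelihood adjusted p = 0.0213). Ahcyl2, related to the hydrolase of S-adenosylhomocysteine, fell from 88.7 and 83.4 to 66.5 and 62.8 CPM (log2 −0.41, edgeR quasi-likelihood adjusted p = 0.00590). Neither gene overlapped between the groups, but other members of that list lay on the other side, such as Ahcyl1 at 270 and 307 CPM in WT and 332 and 334 in cKO (log2 0.21, edgeR quasi-likelihood adjusted p = 0.0840).

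Among 11 readers, 1 was called lower. It was Hnrnpa2b1, an RNA-binding protein proposed as a nuclear m6A reader, which went from 652 and 754 to 497 and 517 CPM (log2 −0.47, edgeR quasi-likelihood adjusted p = 0.00763). Of 7 other AlkB dioxygenases and 7 other writer genes, 0 passed. Virma, the scaffold of the writer complex, entered the table as 1110037F02Rik and stood at 76.2 and 66.3 CPM in WT and at 73.7 and 71.1 CPM in cKO (log2 0.02, edgeR quasi-likelihood adjusted p = 0.870). The 4 calls became 0 when either cKO library was left out or both were summed.

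The peak list held 10160 m6A peaks, 9397 of them with the summit in an annotated gene, and 18 of these fell on members. It was 1 list for all 4 MeRIP-Seq samples, with pooling not stated, so the peaks carry no replicate error and the depth behind them is unknown. Of the 10 members, 8 had a peak: Zc3h13 had 5, Rbm15 and Rbm15b 3 each, Wtap and Alkbh5 2 each, and Cbll1, Mettl16 and Fto 1 each. No peak was listed on Mettl3 or Mettl14, the catalytic core. A peak was present on 37.1% of all genes tested and on 48.6% of the 7058 genes with a mean TPM between the lowest and the highest member. Among genes with a peak, 13.2% had at least 3 and 2.11% at least 5.

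Zc3h13 had the peak with the highest pileup and the lowest q-value of the 18. Its peaks lay in CDS of exons 10, 12, 14, 15 and 19 of 19. The second (chr14:75727309-75727931) had a pileup of 238 fragments at the summit, which ranked 30 of all 10160 peaks, and a −log10 q of 50.6, which ranked 86. Its fold enrichment over the local background was 3.40, which ranked 6615. A high pileup and q-value rank thus went with a fold below the median, as the plot of all peaks shows. The other 4 peaks had folds of 3.52, 2.02, 3.31 and 2.37 in transcript order, and the third, with a −log10 q of 3.11, was the weakest on any member.

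The 5 member peaks with a fold above the median of all peaks were on Rbm15, Rbm15b and Cbll1. Rbm15 had its main peak in the long CDS of exon 1 (chr3:107133821-107135272, 1452 bp), with a fold of 4.66 and a −log10 q of 24.8, and this peak held 15 GGAC motifs. Its other peaks had folds of 2.87 in the 5′UTR and 4.38 in CDS, the latter 250 nt before the stop codon. A further peak with a fold of 4.87 (chr3:107136722-107136921) had its summit 228 bases upstream of the annotated start of Rbm15 and was therefore not counted. On Rbm15b, a gene of 1 exon with 3016 nt, the folds were 4.54, 3.56 and 4.19 from 5′ to 3′, with −log10 q values of 28.6, 30.0 and 29.9. Rbm15b is split into 2 entries in the mm9 annotation, and all 3 peaks lay on the upstream one, within the span of Manf, where they fell in exonic sequence of Rbm15b.

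Wtap carried peaks in exons 6 and 8 of 8, with folds of 2.84 and 3.69, and Cbll1 carried 1 in the last exon (chr12:32172183-32172675, fold 4.49, −log10 q 14.7), 188 nt upstream of the stop codon. The single peak of Mettl16 (chr11:74630803-74631112, fold 2.91) lay in its last exon, 257 nt upstream of the stop codon. The peaks of the erasers were weakly enriched. Those of Alkbh5 had folds of 2.19 in the 5′UTR and 2.41 in CDS (chr11:60367640-60367907), 129 nt upstream of the stop codon, and that of Fto (chr8:93933255-93933579, exon 3 of 9) had a fold of 2.29. All 3 eraser peaks were among the lowest 9.5% of peaks by fold.

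**Figure D4:**
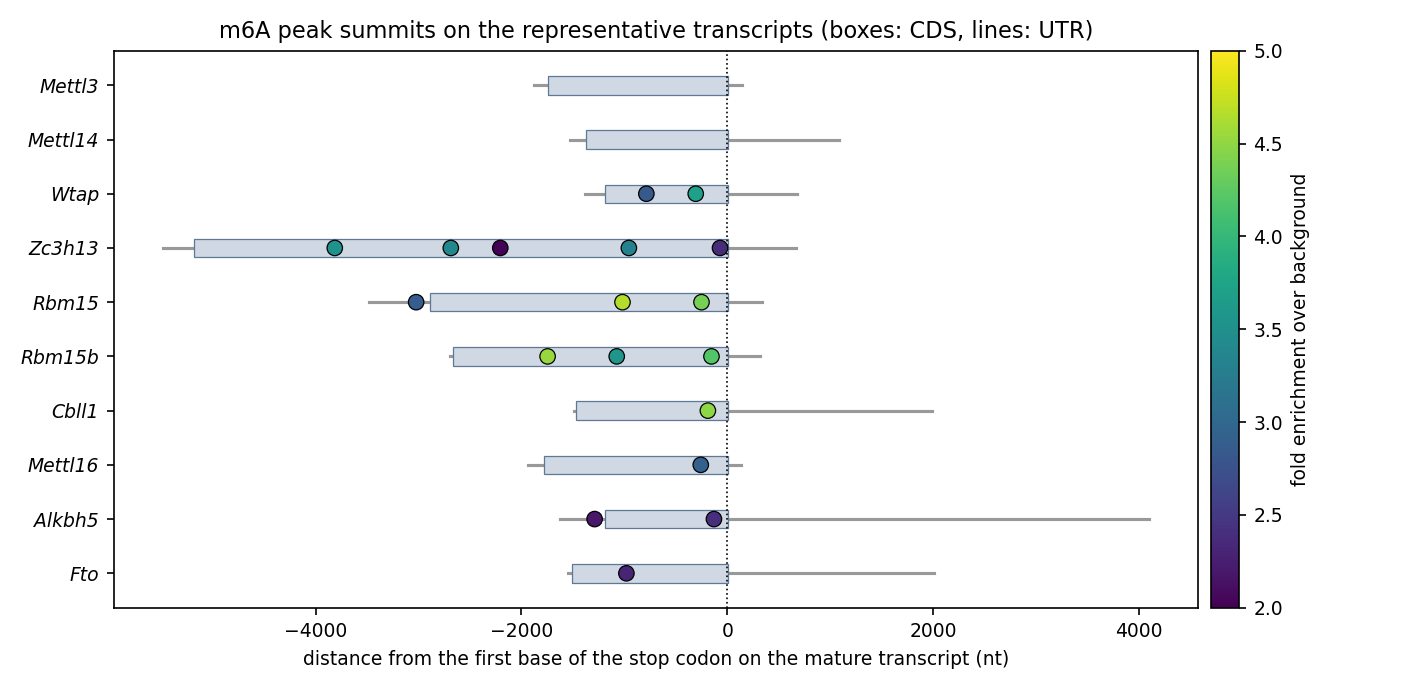
Summits of the 18 m6A peaks along the mature representative transcripts of the 10 members, in nt from the first base of the stop codon, with boxes for CDS, lines for UTRs and colour for fold enrichment. Zc3h13 carries 5 summits, Mettl3 and Mettl14 carry none, and no summit lies downstream of the stop codon.

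Of the 18 summits, 16 lay in CDS, 2 in the 5′UTR (Rbm15 and Alkbh5) and 0 in the 3′UTR, where all gene peaks had 61% in CDS and 25.7% in the 3′UTR. Within 200 nt of the stop codon lay 4 of the 18, against 30.5% of the summits on representative transcripts. CDS was taken before UTRs where transcripts differed, and the peak of Mettl16 and the first of Zc3h13 also lay in the 3′UTR of a shorter transcript. The median length of the exon under the summit was 1237 nt for the members and 1567 nt for all. The 10 genes share a pathway and 18 peaks are few, so these shares are a description without a test.

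Motifs were counted on the strand of the transcript alone, and GGACT is the same motif followed by T. GGAC was present in 18 of 18 member peaks, against 86.9% of all gene peaks, and in 15 of 18 windows of 201 bases around the summit, against 80.1%. Peaks were searched as stretches of the genome, introns included. The only GGAC under the first Wtap peak lay outside the exons of its representative transcript, in the 3′UTR of another transcript. GGACT was present in 5 of 18 peaks, against 49.7%. Of the 61 GGAC motifs under member peaks, 6 were followed by T (9.84%), where all gene peaks had 28.3%. The 6 were in Wtap, Zc3h13, Rbm15 and Rbm15b, and none was under a peak of Cbll1, Mettl16 or the erasers. None of the 8 motifs printed here was followed by T.

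**Figure D5:**
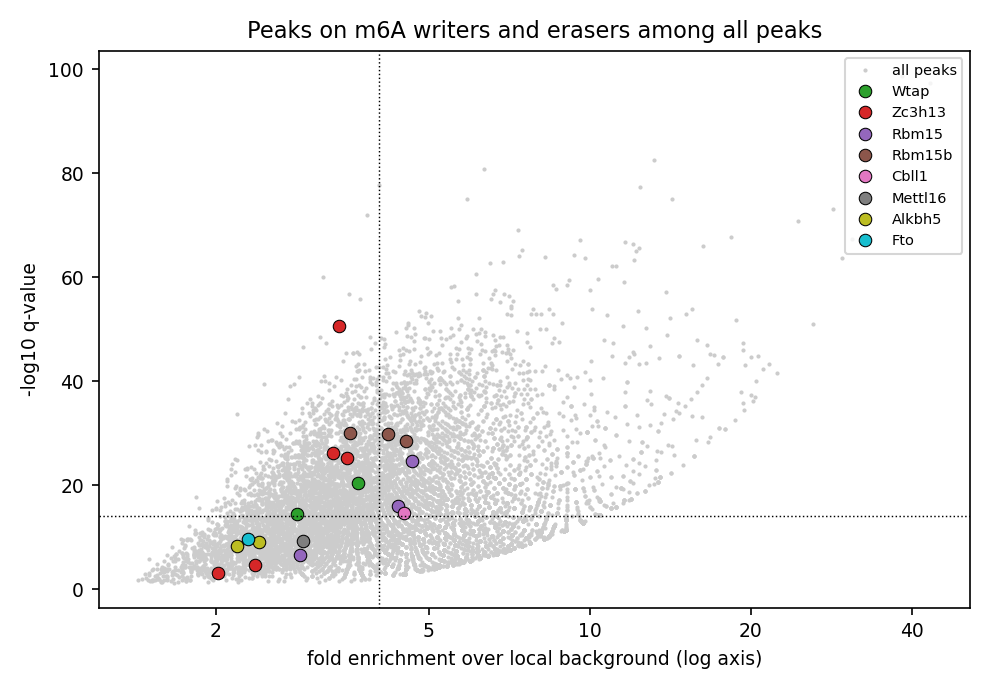
Fold enrichment (log axis) against −log10 q for all 10160 peaks in grey, with the 18 peaks on members coloured by gene and dotted lines at the medians of all peaks (4.03 and 14.2). Member peaks lie between 2.02 and 4.66 in fold, 5 of them above the median, while 11 are above the median −log10 q, led by Zc3h13 at 50.6.

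Across the 18 peaks the fold ranged from 2.02 to 4.66 with a median of 3.35, below the median of all peaks (4.03). The median pileup was 88.5 fragments against 60 and the median −log10 q 15.4 against 14.2. The fold and the q-value thus placed the members on different sides of the middle of the list. Of the 34 other pathway genes, 13 had a peak, among them Virma with 4, the splicing- and export-linked reader Ythdc1 with 3 and the cytoplasmic readers Ythdf1, Ythdf2 and Ythdf3 with 2, 2 and 3, while Mat2a had 0. The MeRIP-Seq samples were wild type alone, so no peak could be compared between genotypes, and whether the 3 genes that rose (each with at least 1 peak) lost m6A in the cKO cells cannot be read from these data. Of the 7 members that did not pass the expression test, 5 had a peak.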

How the data were processed

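Bone marrow MSCs were profiled by RNA-seq (WT and cKO, 2 libraries each) and MeRIP-Seq (2 immunoprecipitates, 2 inputs). The authors mapped RNA-seq reads with HISAT2 2.0.4 and deposited the estimated count of each gene on GRCm38 and a value headed FPKM that sums to 1000000, hence TPM. They also deposited 1 mm9 peak list in MACS2 layout, of which the pileup signal, the fold enrichment ratio and the −log10 q-value were used. The submitters' processing notes also name TopHat.

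Unnamed entries (89, 0.110% to 0.125% of counts) were left out. Rounded counts went through filterByExpr and TMM scaling into edgeR 4.0.16 (quasi-likelihood, two-sided, Benjamini-Hochberg over 15327 genes, no block). With 2 libraries against 2, an exact permutation test cannot go below p = 0.333. Peaks were placed by summit on GENCODE gene models of mm9, with exonic genes and CDS preferred. Scripts were tested on simulated data, in which both groups had the same spread and the planted changes were larger than those of the members. Such data do not test calls at the unequal spread and small changes seen here. Alternatives used DESeq2 1.42.0, limma 3.58.1 (TPM with a pseudocount of 0.1), a linear model per gene (pseudocount 1), other size factors, total counts without TMM, no filter on low counts, a replicate block, left-out libraries and a stricter peak list.

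The members and lists were chosen with earlier results of these data known. Named genes were the 10 members, genes overlapping them, called pathway genes and Mat2a, of which 1 is not reported here. Ahcyl1, Virma and the readers were named after their values were seen.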

Additional observations from a re-analysis of the deposited data

How the results depend on the processing

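The count of members called higher (3) was 0 with the cKO libraries summed (chosen after seeing the data), 1 with limma on log2(TPM + 0.1) (Rbm15b), 0 with limma and no filter, 1 with the ordinary linear model (Fto, log2 0.16, adjusted p = 0.0370) and 0 at an unadjusted p under 0.05 with a 2-fold change. With 1 library left out it ranged from 0 to 5 (5 without WT replicate 1, 4 without WT replicate 2, 0 without either cKO library), and members called lower from 0 to 1 (Fto, without either WT library). A lone library was then assumed to vary like the other group. The share of all genes called moved as well, from 30.5% to 56.0% and 50.0% without a WT library and to 12.1% and 12.0% without a cKO library. Other pathway genes called higher (0) were 1 with limma on log2(TPM + 0.1) and 1 without a filter on low counts, and 0 to 8 with 1 library left out. Those called lower (4) were 0 with the cKO libraries summed, 0 in both limma fits, 0 in the linear model, and 0 to 9 with 1 library left out. Fto was 0.16 in both limma fits. Of all genes, in either direction, DESeq2 called 25.2%, limma 13.4%, limma with no filter 2.27% and the linear model 0.424%. At an unadjusted p under 0.05 with a 2-fold change, 10.5% of all genes passed. The log2 change of Mettl3 ranged from −0.08 to 0.02 with 1 library left out (9.53e-05 without WT replicate 1, 0.02 without cKO replicate 2), and its adjusted p was at least 0.449 in all 13 alternatives. Peaks with a −log10 q of at least 10 left 11 of 18 peaks on 5 of 8 members. Mettl16, Alkbh5 and Fto were the members left without a peak, their highest −log10 q being 9.36, 9.09 and 9.75. Same-numbered libraries share only a number in the labels (correlation of their deviations 0.0318), and the replicate block called 3 members higher and 4885 genes in all, against 4676. DESeq2 called 2 members higher, and 4 were called, Alkbh5 being the fourth, without a filter on low counts and with total counts in place of TMM (the latter chosen after seeing the data). The causes of these changes were not tested. No other alternative changed the direction of a member.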
